A study of Mus musculus with 6 samples.

Results

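GABAergic interneurons are the inhibitory cells of the cerebral cortex, and 10 genes that mark them and their subclasses were followed here in mice overexpressing Wnt3, a secreted Wnt ligand. The genes were Gad1, Gad2, Slc32a1, Pvalb, Lhx6, Reln, Ndnf, Htr3a, Calb2 and Adarb2, taken by exact symbol from the 50559 genes listed in the deposited tables. All 10 were found, and all 10 passed the filter on low counts that left 22360 genes for testing. RNA sequencing was done on 6 libraries of C57 mice labelled auditory cortex, 3 with the genotype label WNT3 control and 3 labelled as overexpressing WNT3. The study set out to find molecular changes in the auditory cortex after Wnt3 overexpression. How the gene was overexpressed, what the controls received and the age of the mice are not given in the labels. Nor do they say whether each replicate was its own animal. The p-values therefore speak only to the variation among these 6 libraries, part of which may be technical.

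Interneurons make the inhibitory transmitter GABA from glutamate with the glutamate decarboxylases encoded by Gad1 and Gad2, and load it into synaptic vesicles with the transporter encoded by Slc32a1. Most cortical interneurons are born in the ganglionic eminences of the embryonic forebrain. Cells from the medial eminence depend on the transcription factor Lhx6 and become parvalbumin (Pvalb) or somatostatin cells. Cells from the caudal eminence commonly express Adarb2 and the serotonin receptor gene Htr3a, and include layer 1 cells marked by Ndnf and Reln and bipolar cells marked by calretinin (Calb2). In bulk tissue, fewer cells of a type and less RNA per cell cannot be told apart.

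Total counts ranged from 42614588 to 71803617 per library, and the lowest count of any of the 10 genes was 118, for Htr3a in control 1. Wnt3 stood at 2.70, 1.91 and 1.74 CPM (counts scaled to a common library size, with TMM factors for library composition) in controls 1 to 3, and at 98.8, 7.45 and 8.71 CPM in overexpression libraries 1 to 3. The extraction protocol speaks of striatum, a region rich in GABAergic projection neurons, whereas the sample labels say auditory cortex. Slc17a7, the vesicular glutamate transporter of cortical excitatory neurons, was at 681 to 826 CPM in the 6 libraries. The striatal dopamine receptor genes Drd1 and Drd2 were at 8.19 to 22.4 and 0.64 to 6.35 CPM. Of 9 listed leukocyte genes, the 5 tested summed to 5.21 to 7.28 CPM in controls and 12.2 to 42.8 CPM in overexpression. Ly6g, not tested, was at 0 in all controls and at 0.125, 0.177 and 0 CPM in overexpression libraries 1 to 3. The 8 endothelial genes summed to 207 to 219 CPM in controls and 286 to 485 CPM in overexpression. The part of leukocyte and endothelial genes in the results was not tested. Control 2 stood apart from the other libraries by transcript length, as described for the genes it touches, and by a mitochondrial share of counts of 2.57%, against 1.27% to 1.54% in the other 5 libraries.

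The 3 genes of GABA synthesis and vesicle loading all lie on chromosome 2, and the sequences upstream of their RefSeq starts are shown because these genes gave the clearest contrast between the groups. Gad1 spans 70553072 to 70602014, Gad2 spans 22622205 to 22693874 and Slc32a1 spans 158610767 to 158615748, all on the plus strand of mm10 in the GENCODE M21 annotation. The stretches below are from RefSeq (GRCm38.p6, plus strand, 5′ to 3′), shortened to end before any annotated exon of the gene, and capitals mark a match to a TCF/LEF motif, the sequence bound by the nuclear factors of Wnt signalling.
Gad1, chr2:70561879-70562041: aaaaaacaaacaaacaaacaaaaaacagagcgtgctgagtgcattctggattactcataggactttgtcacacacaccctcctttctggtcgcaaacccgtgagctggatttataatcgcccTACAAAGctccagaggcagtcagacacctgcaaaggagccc
Gad2, chr2:22622077-22622204: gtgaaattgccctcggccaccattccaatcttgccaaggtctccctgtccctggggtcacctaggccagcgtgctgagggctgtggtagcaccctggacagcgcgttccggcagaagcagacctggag
Slc32a1, chr2:158610508-158610757: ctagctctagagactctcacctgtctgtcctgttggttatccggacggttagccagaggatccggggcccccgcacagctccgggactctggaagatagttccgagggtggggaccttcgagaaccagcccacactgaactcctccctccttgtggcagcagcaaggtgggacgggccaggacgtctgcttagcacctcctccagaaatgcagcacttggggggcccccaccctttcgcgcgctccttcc
The motif was searched on both strands as CTTTGAA or with its last 2 letters replaced by AT, TA or TT, in the 250 bases before each start. Gad1 had 1 match, starting 128 bases before its start, and Gad2 and Slc32a1 had none. The Gad1 window lies inside the GENCODE span of the gene, as its RefSeq start is internal to that span. Of the 10 windows given for 7 of the 10 genes, 1 at Lhx6 also held a match, against 14.8% of the 32851 windows of that length in the table. Adarb2 had the only match among these 10 windows to the homeodomain motif TAATTA (both strands), which 4.84% of all windows hold. A match is a description of the letters and not a measured binding site. Ndnf, Htr3a and Calb2 had no window.

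No interneuron identity gene passed the test between overexpression and control. In edgeR's quasi-likelihood test, adjusted by Benjamini-Hochberg across the 22360 genes, 0 of the 10 had an adjusted p under 0.05, where the background was 0 genes (0%). At an unadjusted p under 0.05 the count was also 0 of 10, against 4.65% of all tested genes (1.86% higher, 2.8% lower), and DESeq2 and limma voom likewise called 0 of the 10. DESeq2 called 64 of all tested genes (0.286%). Of the 10 fitted fold changes, those of Gad1, Gad2, Lhx6, Htr3a and Adarb2 were above 0 and those of Slc32a1, Pvalb, Reln, Ndnf and Calb2 below 0. Across all tested genes the median log2 fold change was -0.0069, with quartiles at -0.31 and 0.24.

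Both decarboxylase genes lay above the controls in every overexpression library. Gad1, whose enzyme makes most of the GABA of the cell body, was at 284, 224 and 275 CPM in controls 1 to 3 and at 287, 414 and 326 CPM in overexpression libraries 1 to 3. The groups did not overlap, although the lowest overexpression value was close to the highest control. The log2 fold change was 0.39 ± 0.19 (SE), with an edgeR unadjusted p of 0.074 and an adjusted p of 0.82. It was 0.24 without overexpression library 2. Gad2, whose enzyme supplies GABA at synaptic terminals, was at 134, 68.5 and 145 CPM in the controls and at 159, 179 and 151 CPM in overexpression. The groups again did not overlap, and control 2 was the low library of its group. The log2 fold change was 0.49 ± 0.27 (SE), with an edgeR unadjusted p of 0.11 and an adjusted p of 0.82. Without control 2, Gad2 was at 0.22. Groups did not overlap in 2 of the 10 genes, both higher in overexpression, against 5.89% of tested genes that were higher without overlap, 6.04% that were lower and 11.9% in either direction. With upper quartile scaling the Gad1 groups overlapped, and those of Gad2 stayed apart under each of the 4 scalings and in TPM.

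Slc32a1 did not follow the decarboxylase genes. It was at 39.9, 54.4 and 40.8 CPM in the controls and at 27.5, 36.1 and 40.7 CPM in overexpression. The overexpression library with the highest value lay just above the lowest control, so the groups overlapped. With upper quartile scaling they did not, and every overexpression library was lower. The log2 fold change was -0.37 ± 0.21 (SE), with an edgeR unadjusted p of 0.12 and an adjusted p of 0.82. It was -0.21 without control 2 and -0.22 without overexpression library 1. Exons of the transcript Gm14205 overlap Slc32a1 on the other strand. Since the strand setting of the counting is not given, reads of this pair may not be told apart. Exons of Lhx6 (with Gm27953, same strand) and of Reln (with Gm10475, other strand) also overlap another transcript. None of these Gm transcripts has an entry in the deposited counts.

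**Figure D1:**
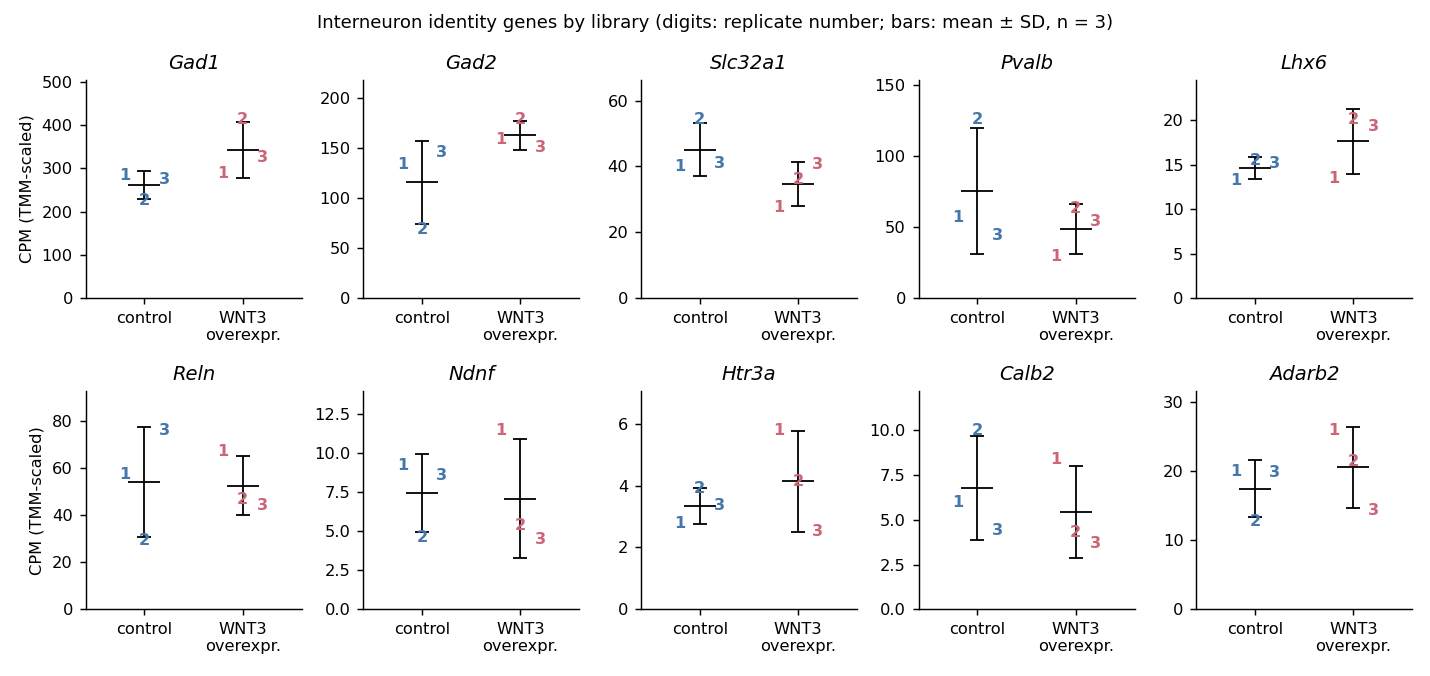
Expression of the 10 interneuron identity genes in CPM (vertical axis, linear from 0) in control and WNT3 overexpression libraries. Digits are single libraries, labelled by replicate number, and bars are the mean ± SD (n = 3). The overexpression libraries lie above all controls for Gad1 and Gad2, and the groups overlap for the other 8 genes.

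Within a library, transporter and synthesis genes can be set against each other without any library scaling. For Slc32a1 over Gad1 in CPM, controls 1 to 3 gave ratios of 0.141, 0.242 and 0.149, and overexpression libraries 1 to 3 gave 0.0957, 0.0872 and 0.125, so every overexpression library lay below every control. The group means were 0.177 ± 0.056 and 0.103 ± 0.020 (SD, n = 3). For Slc32a1 over Gad2 the ratios were 0.299, 0.794 and 0.281 in controls, against 0.173, 0.202 and 0.270 with overexpression, again without overlap. The gap between the groups was narrow. For Slc32a1 over Gad1 the highest overexpression ratio was 0.125 and the lowest control 0.141. For Slc32a1 over Gad2 these were 0.270 and 0.281. The highest control, at 0.242 and 0.794, lay far above the other controls and raised the control mean and SD. Both ratios stayed apart with the length trend removed. They also did in the deposited TPM values, where each ratio is nearly a constant multiple of that in CPM, so this is no separate support. The choice of these genes is no test: relative to Gad1, 24.6% of all tested genes were lower without overlap, and relative to Gad2, 31.2%. The ratio of Gad2 to Gad1 overlapped between the groups, at 0.305 to 0.528 in controls and 0.432 to 0.552 in overexpression.

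**Figure D2:**
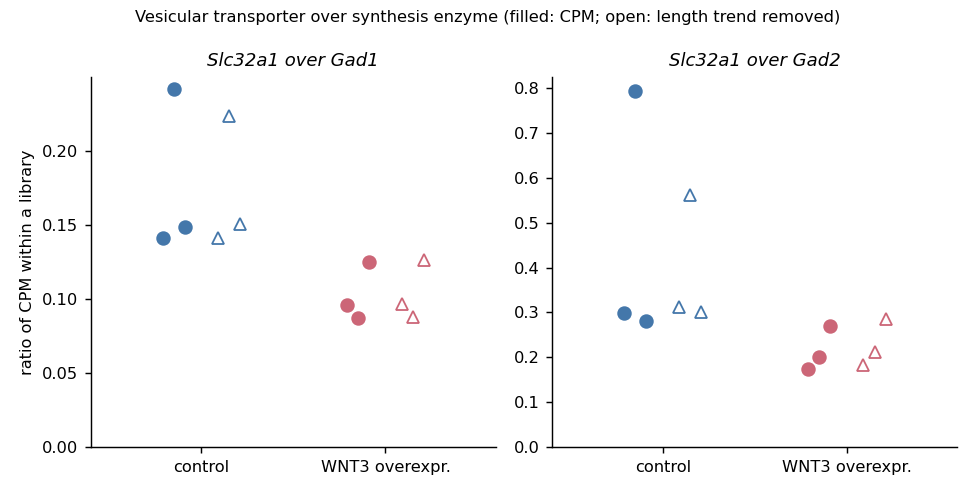
Ratio of Slc32a1 to Gad1 (left) and to Gad2 (right) within each library (vertical axes, linear from 0) in control and overexpression. Filled circles are ratios of CPM and open triangles the same with the length trend removed. For Slc32a1 over Gad1 the 3 overexpression libraries lie at 0.0872 to 0.125 and the 3 controls at 0.141 to 0.242.

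Among the genes of the medial eminence lineage, Pvalb and Lhx6 had fitted changes of opposite sign. Pvalb encodes parvalbumin, the calcium buffer of fast-spiking interneurons, and lies on chromosome 15 at 78191114 to 78206400 on the minus strand. It was at 56.7, 126 and 44.0 CPM in the controls and at 29.3, 63.3 and 53.9 CPM in overexpression. Control 2 was the highest of the 6 libraries, overexpression library 1 the lowest, and the other 4 lay between 44.0 and 63.3 CPM. The log2 fold change was -0.63 ± 0.43 (SE; edgeR adjusted p = 0.82), and it was -0.042 without control 2. The 95% interval of the fold ran from 0.328 to 1.27.

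Lhx6, the LIM homeodomain factor of this lineage, lies on chromosome 2 at 36081953 to 36105408 on the minus strand. It was at 13.2, 15.5 and 15.2 CPM in the controls and at 13.4, 20.1 and 19.3 CPM in overexpression. Overexpression libraries 2 and 3 lay above all controls, and library 1 lay within them. The log2 fold change was 0.27 ± 0.21 (SE; edgeR adjusted p = 0.82). Pvalb over Lhx6 in CPM gave ratios of 4.29, 8.14 and 2.90 for controls and 2.18, 3.15 and 2.79 for overexpression, and the groups overlapped.

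Reln and Ndnf, the genes of layer 1 interneurons, had fitted changes close to 0. Both were lowest among the controls in control 2 and highest among the overexpression libraries in library 1. Reln encodes reelin, a large secreted glycoprotein that guides neuronal positioning, and spans 21884454 to 22344702 of chromosome 5 on the minus strand. It was at 57.3, 29.4 and 76.0 CPM in the controls and at 67.1, 46.6 and 44.1 CPM in overexpression. The control range enclosed all 3 overexpression values, and the log2 fold change was -0.05 ± 0.34 (SE; edgeR adjusted p = 0.97). Ndnf, which encodes a secreted neurotrophic factor, spans 65671590 to 65712326 of chromosome 6 on the plus strand. It was at 9.20, 4.60 and 8.58 CPM in the controls and at 11.4, 5.33 and 4.47 CPM in overexpression. Overexpression library 1 was the highest and library 3 the lowest of all, and the log2 fold change was -0.08 ± 0.42 (SE; edgeR adjusted p = 0.96). Reln is also made by Cajal-Retzius cells of the developing cortical surface. Of 6 markers listed for these cells, Lhx1 had no count in any library, and the 3 that were tested summed to 1.08 to 2.71 CPM.

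The other caudal eminence genes were low and variable. Htr3a, an ion channel subunit gated by serotonin, is on chromosome 9 at 48899213 to 48911099 on the minus strand. It was at 2.77, 3.91 and 3.34 CPM in the controls and at 5.78, 4.13 and 2.51 CPM in overexpression, where library 1 was the highest and library 3 the lowest of all 6. Its log2 fold change of 0.31 ± 0.35 (SE; edgeR adjusted p = 0.84) was -0.0051 without overexpression library 1. Calb2, which encodes the calcium-binding protein calretinin, is on chromosome 8 at 110137502 to 110168210 on the minus strand. Its controls were at 5.96, 9.99 and 4.39 CPM and its overexpression libraries at 8.36, 4.27 and 3.67 CPM. Control 2 and overexpression library 1 were the high libraries, and the log2 fold change was -0.32 ± 0.41 (SE; edgeR adjusted p = 0.84). Without control 2 it was 0.071, and without overexpression library 1 it was -0.76.

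Adarb2, an RNA-binding relative of the adenosine deaminases that edit RNA, spans 8202866 to 8768747 of chromosome 13 on the plus strand. It was at 19.99, 12.7 and 19.8 CPM in the controls and at 25.9, 21.4 and 14.3 CPM in overexpression. Overexpression libraries 1 and 2 lay above all controls and library 3 within them. The log2 fold change was 0.23 ± 0.28 (SE; edgeR adjusted p = 0.84), or 0.046 without control 2 and 0.036 without overexpression library 1.

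**Figure D3:**
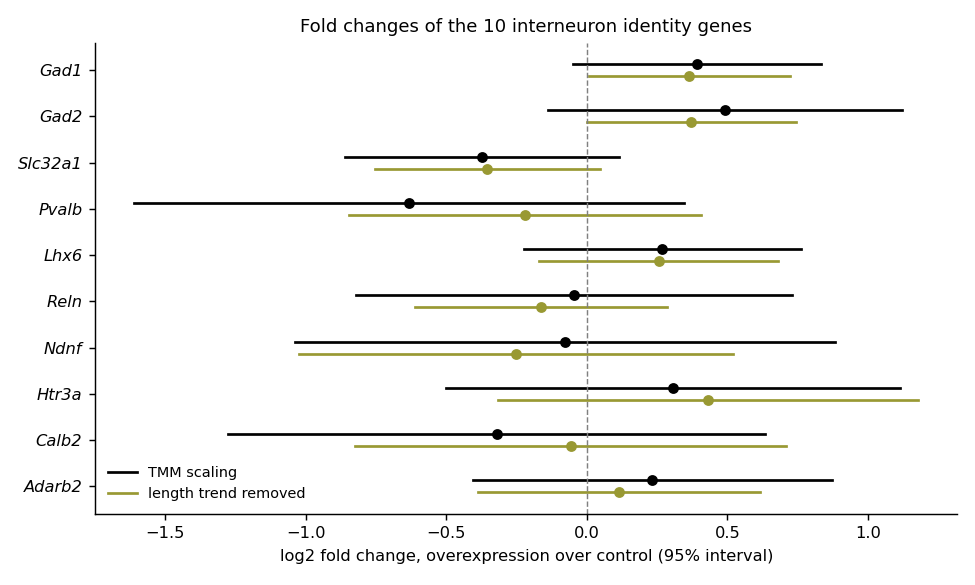
Log2 fold change of overexpression over control for each gene (horizontal axis), with its 95% interval from the edgeR fit, under TMM scaling (black) and with the length trend removed (olive). All 10 intervals include 0 under TMM scaling. With the trend removed the lower ends for Gad1 (0.0066) and Gad2 (0.00096) lie just above 0.

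The 95% intervals show what sizes of change these libraries leave possible. For Gad1 the fold lay between 0.967 and 1.78, for Gad2 between 0.909 and 2.18, and for Slc32a1 between 0.550 and 1.08. The widest intervals on the log2 scale were those of Pvalb, Ndnf and Calb2, at 0.488 to 1.84 for Ndnf and 0.413 to 1.55 for Calb2. The interval of Lhx6 was 0.856 to 1.69, that of Reln 0.567 to 1.66, that of Htr3a 0.707 to 2.16 and that of Adarb2 0.754 to 1.83.

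Levels between genes were compared in the deposited TPM values, which account for transcript length. Gad1 had the highest control mean, 170 ± 49.7 TPM, followed by Pvalb at 154 ± 54.4 TPM (SD, n = 3), and their control ranges overlapped. Gad2 (46.4 ± 22.8 TPM) and Slc32a1 (32.5 ± 0.72 TPM) came next, below Pvalb without overlap and overlapping each other. Reln (10.5 ± 5.80 TPM), Lhx6 (9.74 ± 1.94 TPM), Calb2 (9.51 ± 2.13 TPM) and Adarb2 (7.84 ± 3.07 TPM) formed a lower set in which neighbours overlapped. Htr3a, at 3.39 ± 0.41 TPM, and Ndnf, at 1.85 ± 0.94 TPM, were lowest, each without overlap with its higher neighbour. In overexpression the means of the 4 highest genes kept this order, at 247 ± 45.9 TPM for Gad1, 123 ± 42.1 for Pvalb, 71.8 ± 7.16 for Gad2 and 29.1 ± 5.21 for Slc32a1 (SD, n = 3). There Gad1 lay above Pvalb without overlap and Gad2 above Slc32a1 without overlap, whereas Pvalb and Gad2 overlapped.

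In control 2 the shorter of the 10 genes were higher, and the longer ones lower, than in the other controls. Dividing a gene's deposited count by its TPM gives its relative transcript length, scaled here so that the median tested gene is 1. The shortest 5 genes were Pvalb (0.331), Calb2 (0.491), Htr3a (0.701), Slc32a1 (0.990) and Lhx6 (1.09). These were higher in control 2 than the mean of controls 1 and 3, by 1.33 for Pvalb, 0.90 for Calb2, 0.31 for Htr3a, 0.42 for Slc32a1 and 0.13 for Lhx6 in log2 CPM. The longest 5 genes were Gad1 (1.14), Adarb2 (1.68), Gad2 (1.90), Ndnf (2.97) and Reln (3.96). They were lower in control 2, with log2 differences of -0.31 for Gad1, -0.63 for Adarb2, -1.02 for Gad2, -0.88 for Ndnf and -1.15 for Reln. Over all tested genes grouped by length into 4 equal sets, the median difference was 0.64 for the shortest set and -0.54 for the longest. Lhx6, slightly longer than the median gene, lies in the set next to the longest, whose median difference was -0.12, so its own difference had the opposite sign.

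**Figure D4:**
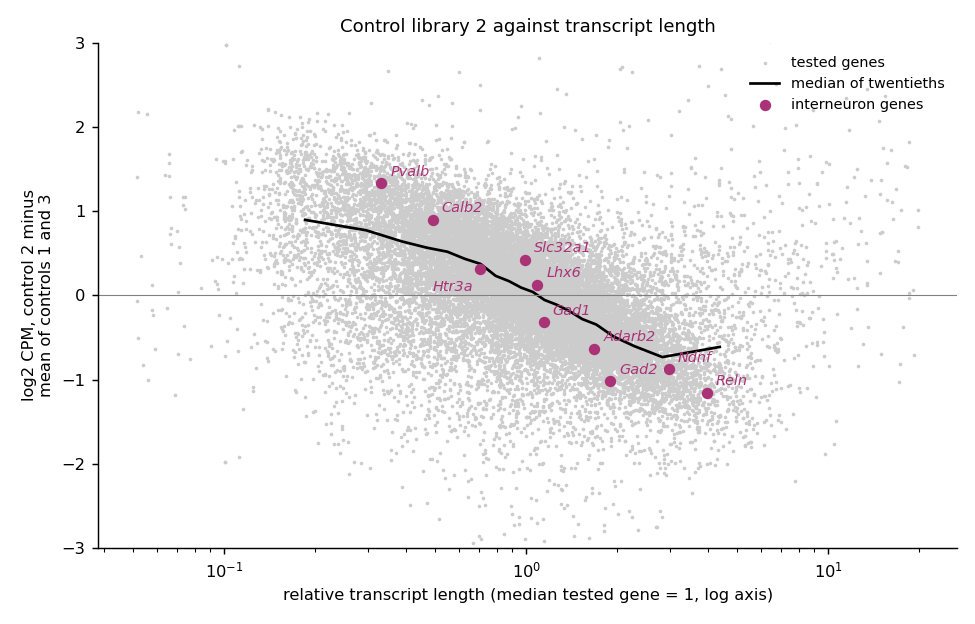
Difference in log2 CPM between control 2 and the mean of controls 1 and 3 (vertical axis) against relative transcript length (horizontal log axis, median tested gene = 1). Grey points are tested genes within the axis limits, the black line joins medians of equal-sized bins by length, and labelled points are the 10 interneuron genes. Pvalb, the shortest, lies at 1.33 and Reln, the longest, at -1.15.

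Removing this trend from every library lowered the SE of the fold change of all 10 genes. Pvalb then stood at 61.8, 73.3 and 49.1 CPM in the controls and at 31.8, 69.0 and 57.4 CPM in overexpression, a log2 fold change of -0.22 ± 0.27 (SE). Gad2 stood at 127, 90.8 and 136 CPM and at 148, 168 and 142 CPM, still without overlap. Gad1 stood at 281, 228 and 272 CPM in the controls and at 281, 404 and 319 CPM in overexpression, so its groups now overlapped narrowly. In this fit, chosen after the data were seen, Gad1 and Gad2 had edgeR unadjusted p of 0.0468 and 0.0495 and adjusted p of 0.748, with log2 fold changes of 0.36 ± 0.16 and 0.37 ± 0.16 (SE). That made 2 of the 10 genes under an unadjusted p of 0.05, both higher, against 2.89% of tested genes that were higher and 6.68% in either direction, and 0 of the 10 when control 2 was also left out.

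Among the genes followed here, those of the caudal eminence had their highest overexpression values in overexpression library 1. All 5 of these genes were higher in it than in both other overexpression libraries, by 1.15 for Ndnf, 0.99 for Calb2, 0.75 for Htr3a, 0.56 for Reln and 0.55 for Adarb2 in log2 CPM against the mean of libraries 2 and 3. Gad1, Slc32a1, Pvalb and Lhx6 were instead at their group's lowest there, with differences of -0.35 for Gad1, -0.47 for Slc32a1, -0.98 for Pvalb and -0.54 for Lhx6, while Gad2 differed by -0.05. The wider lists described below were mixed in this library. Of the caudal list, Vip and Kit were highest of their group there, whereas Cck and Sema3c were lowest. Of the medial list, Nos1 and Sox6 were highest there, and Sst and Npy lowest. The share of all tested genes highest or lowest in this library was not counted, so how common such a pattern is among them is not known. The same library had the highest Wnt3 level. Its 7 listed meningeal fibroblast genes summed to 85.1 CPM, against 44.1 and 27.7 CPM in the other overexpression libraries and 27.1 to 62.0 CPM in controls. Its 9 oligodendrocyte genes summed to 3089 CPM, against 5086 and 6329 CPM in the other overexpression libraries and 4550 to 6790 CPM in controls. The part of these differences in the gene values was not tested.

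**Figure D5:**
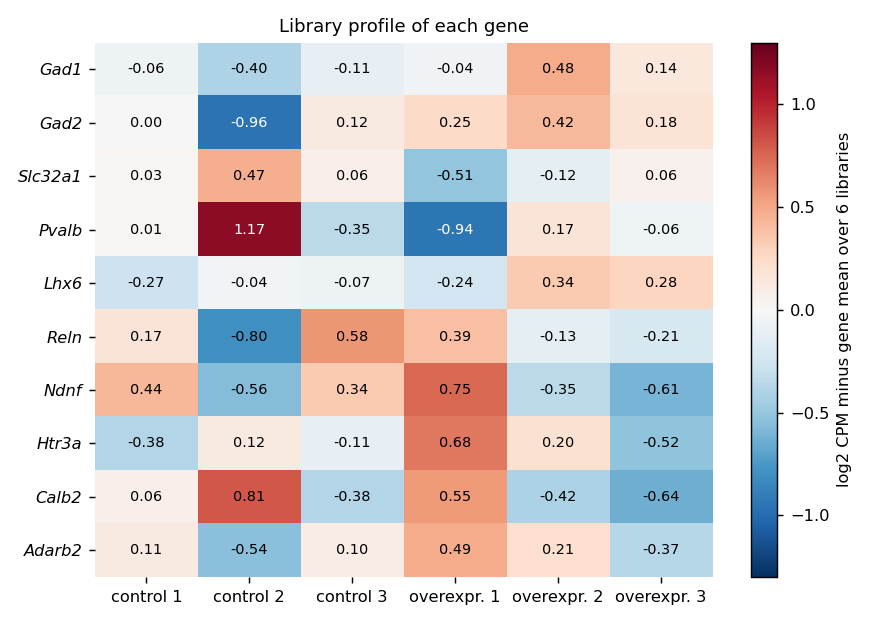
Log2 CPM of each gene minus its mean over the 6 libraries, by library (columns) and gene (rows), with the colour scale in log2 units. Control 2 holds the extreme values of Pvalb (1.17) and Gad2 (-0.96), and overexpression library 1 is above the mean for Reln, Ndnf, Htr3a, Calb2 and Adarb2.

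Relative to the mean log2 CPM of Gad1, Gad2 and Slc32a1 in the same library, none of the 7 other genes separated the groups. The difference of overexpression from control was -0.74 for Pvalb, from -0.67 ± 0.96 in controls to -1.41 ± 0.40 in overexpression (SD, n = 3). It was 0.05 for Lhx6, 0.03 for Htr3a, 0.03 for Adarb2, -0.16 for Reln, -0.32 for Ndnf and -0.49 for Calb2. Without control 2 these differences were -0.19 for Pvalb, 0.20 for Lhx6, 0.24 for Htr3a, -0.084 for Adarb2, -0.44 for Reln, -0.51 for Ndnf and -0.092 for Calb2. With Gad2 alone as the reference, Reln lay below the controls in every overexpression library, as did 31.2% of all tested genes.

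The wider gene sets around the 10 genes were counted from lists chosen with earlier results of these data known, so the counts are no test. No listed gene passed the edgeR adjusted p of 0.05. Of 16 genes for GABA synthesis, transport and breakdown, 13 had a fold change above 0 and 0 reached an unadjusted p under 0.05 (median log2 fold change 0.21). Apart from the 10 genes, the smallest p in this list belonged to the neutral amino acid transporter Slc38a2, at 126, 106 and 154 CPM in controls and 138, 227 and 172 CPM in overexpression. Slc1a1, a neuronal glutamate transporter, followed with a log2 fold change of 0.21 ± 0.17 (SE). Of 10 forebrain GABAergic transcription factor genes, 8 were below 0 (median -0.08). In this list 1 gene reached an edgeR unadjusted p under 0.05, lower, against 2.8% of tested genes. Also 1 was lower without overlap, against 6.04% of tested genes. It is the gene not reported here. Dlx6, a homeodomain factor of the eminences, had a log2 fold change of -0.54 ± 0.28 (SE).

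Of 23 tested genes of the medial eminence list, 11 were above 0 and 12 below (median -0.03), and 1 reached an unadjusted p under 0.05, lower. This was Sst, the somatostatin precursor, at 79.7, 213 and 76.2 CPM in controls and 39.3, 61.8 and 81.2 CPM in overexpression, with groups that overlapped and control 2 highest. Tac1, a tachykinin precursor, had a log2 fold change of -0.97 ± 0.49 (SE). Of 26 genes of the caudal eminence and preoptic list, 12 were above 0 and 14 below (median -0.05), and 5 reached an unadjusted p under 0.05, all lower, against 2.8% of tested genes. None of these 5 was among the 10 genes: they were Lamp5, Penk, Crh, Cck and Npas3. The groups overlapped for Penk and for Cck, and control 2 was the highest library for Cck.

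Lamp5, a lysosome-associated membrane protein of neurogliaform interneurons that cortical excitatory neurons also express, had control values of 244, 279 and 179 CPM and overexpression values of 121, 127 and 121 CPM. All overexpression values lay below all controls, with a log2 fold change of -0.93 ± 0.19 (SE), an edgeR unadjusted p of 0.0013 and an adjusted p of 0.82. Penk, the enkephalin precursor, had control values of 26.4, 53.0 and 70.1 CPM and overexpression values of 12.6, 11.1 and 29.1 CPM. Penk is also abundant in striatal projection neurons, whose 16 tested markers summed to 568, 551 and 743 CPM in the same controls and 547, 563 and 647 CPM in overexpression. Of these markers, 13 had a fold change below 0 and 3 above (median -0.15), and 0 separated the groups. Adora2a was at 1.81, 6.40 and 11.3 CPM in controls and 2.41, 1.94 and 4.62 CPM in overexpression. The marker Isl1 had no count in control 1 and overexpression library 2. The part of striatal tissue in the Penk values was not tested.

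Neither the perineuronal net, the matrix that surrounds parvalbumin cells, nor the reelin pathway held a gene with an unadjusted p under 0.05. Of 8 net genes 5 were above 0 (median 0.10), and the smallest p belonged to Tnc (log2 fold change 0.92 ± 0.59, SE) and Bcan (-0.19 ± 0.20, SE). Of 12 reelin pathway genes, Reln included, 9 were above 0 (median 0.13). For the receptor gene Lrp8 the log2 fold change was 0.40 ± 0.28 (SE), and for the integrin gene Itgb1 it was 0.20 ± 0.18 (SE).

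The genes whose library profiles were most like those of the 3 most variable members were found by the root mean square difference of centred log2 CPM over the 6 libraries, among 11396 genes. For Pvalb they were Dexi (0.13), Fth1 (0.15) and Mvb12a (0.16), with relative lengths of 0.470, 0.319 and 0.376. Fth1, the ferritin heavy chain, was at 824, 2329 and 801 CPM in controls and 611, 1066 and 980 CPM in overexpression, with the same high library as Pvalb. For Ndnf they were Nectin3 (0.11), Nwd2 (0.16) and Prkg1 (0.18), with relative lengths of 2.23, 2.92 and 2.34. For Calb2 they were Cd83 (0.13), Igsf10 (0.18) and Pnck (0.21), with relative lengths of 0.725, 3.95 and 0.530.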

How the data were processed

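RNA was extracted with Trizol and made into strand-specific TruSeq libraries, per the labels' protocols. Tools named in the submitters' processing notes, without their roles, are STAR 2.5.3a, DESeq 1.16.1, FastQC 0.11.5 and Cuffnorm, and the build is mm10. For the counting program, its annotation and its strand setting, no statement was found in the labels or headers. Counts per gene were deposited by the authors as whole numbers. The TPM table holds the authors' deposited TPM values for the same genes. Columns were matched to samples by library name.

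Genes were kept by filterByExpr (minimum count 10) and tested with the edgeR 4.0.16 quasi-likelihood test in R 4.3.3, with TMM factors, a model of group alone (4 residual degrees of freedom) and p-values adjusted by Benjamini-Hochberg over all 22360 tested genes. The standard error is the size of the log2 fold change over the square root of F. Log2 CPM used an added 0.5. With 3 libraries a group, the smallest two-sided p of an exact permutation test is 0.1, and that test was not used. Relative length was known for 21741 tested genes, and in each library lowess (span 0.3) gave its trend. The methods were checked on simulated counts. DESeq2 1.42.0, limma 3.58.1 (voom, or limma-trend fitted to log2 TPM after adding 1 or 0.1, also restricted to genes of mean TPM 0.5 or more), other scalings and filters, the replicate number as a block, and omission of single libraries or of mitochondrial and haemoglobin genes were alternatives. The length trend was added after the data were seen. The members and lists were chosen with earlier results of these data known. By rule, all 10 members and up to 2 other genes of smallest p per list were named, except 1 gene that is not reported here; Fth1 is described, and Crh, Cck and Npas3 are named, after their values were seen. Near-identical copies and overlapping genes may share reads, and Gad1 has a pseudogene, Gad1-ps, at 0.367 to 0.680 CPM.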

Additional observations from a re-analysis of the deposited data

How the results depend on the processing

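The count of interneuron genes with an adjusted p under 0.05 was 0 under all 20 alternatives, and the lowest adjusted p of any of the 10 genes was 0.603. Of 200 member values under these alternatives, 182 kept the direction of the reported fit. Gad1, Gad2, Slc32a1, Pvalb, Lhx6 and Adarb2 kept it under all 20, with log2 fold changes of 0.24 to 0.57, 0.22 to 0.78, -0.51 to -0.17, -0.90 to -0.042, 0.17 to 0.47 and 0.033 to 0.43. Reln, Ndnf, Htr3a and Calb2 turned sign under some. Reln was at 0.036 with limma voom, 0.21 and 0.25 on log2(TPM + 1) and log2(TPM + 0.1), 0.21 with a mean TPM of at least 0.5, and -0.34 to 0.28 without single libraries, above 0 without control 3 or overexpression library 2 or 3. Ndnf was at 0.13, 0.22 and 0.13 in the same 3 TPM fits and at -0.60 to 0.16 without single libraries, above 0 without control 1 or 3 or overexpression library 2 or 3. Calb2 ranged from -0.76 to 0.071 (without control 2) when single libraries were left out and was at 0.060 with the length trend removed and control 2 left out, and Htr3a ranged from -0.0051 (without overexpression library 1) to 0.56. The cause of these turns was not tested. Members with an unadjusted p under 0.05 numbered 2 with the length trend removed and 0 under every other alternative. The count of all genes called was 64 with DESeq2 and 0 otherwise.

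Replicate numbers are shared between the groups, but same-numbered libraries did not deviate together (correlations over genes of 0.08, -0.02 and -0.03). When replicate number entered the model as a block, 0 of the 10 genes and 0 of all genes passed, and Reln turned to 0.038. Of 56 alternatives for levels relative to the GABA genes, 55 moved by less than 1 SD, a wide margin for Pvalb, whose value went from -0.74 to -0.19 without control 2, and Lhx6 moved to -0.32 with Gad2 alone as the reference. The lowest member count was 118, and each group had 3 libraries.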

Other observations

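Several interneuron peptide and energy genes outside the 10 had their highest level in control 2, as Pvalb did. The shortest set of all tested genes by length was also higher in control 2, at a median log2 difference of 0.64. The part of transcript length in the values below was not tested, and the share of all genes highest in control 2 was not counted. Npy, the neuropeptide Y precursor, was at 41.2, 118 and 32.8 CPM in controls 1 to 3 and at 26.4, 37.3 and 43.2 CPM in overexpression libraries 1 to 3. Cck, the cholecystokinin precursor, was at 78.1, 214 and 58.4 CPM in the controls and at 48.0, 49.7 and 70.2 CPM in overexpression. Cox6a2, a cytochrome oxidase subunit of parvalbumin cells, was at 3.82, 11.4 and 4.05 CPM in the controls and at 2.53, 3.39 and 4.55 CPM in overexpression. Vip, the vasoactive intestinal peptide precursor of caudal eminence cells, had groups that overlapped, at 36.6, 53.9 and 38.3 CPM in the controls and 51.3, 47.3 and 34.4 CPM in overexpression. Crh, the corticotropin-releasing hormone precursor, had control values of 6.50, 6.02 and 4.02 CPM, and all its overexpression values, 2.82, 1.45 and 3.14 CPM, lay below them. Its log2 fold change was -1.16 ± 0.36 (SE), with an edgeR adjusted p of 0.82. These genes were chosen after their values were seen.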
